A study of Mus musculus with 42 samples.

Results

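The genes described here are 30 genes of cholesterol synthesis and sterol regulation, chosen by name: 19 enzymes that build cholesterol, 5 genes of the sterol regulatory element binding protein (SREBP) system, 5 genes of sterol transport and the liver X receptors (LXR), and 1 enzyme that removes cholesterol from neurons. The set was chosen with earlier results of these data known. Of the 30 genes, 28 had a probe set of their own among the 18193 genes measured, while Acat2 and Nr1h2 were not analysed here. A gene with several probe sets was represented by the one with the highest mean over all arrays. Total RNA had been hybridized to 42 Affymetrix mouse arrays from C57BL/6 mice that lacked Fmr1 (KO) or were wild type (WT), all untreated. Primary hippocampus and primary cortex are the embryonic tissues at 17 to 18 days post-conception, pooled from littermates per the labels. Hippocampal culture and cortical culture are neurons prepared from embryos of that age and matured for 14 days in vitro, with glia still present, so that a culture and a tissue differ in age and in cell types as well as in growth outside the brain. There were 5 KO and 5 WT arrays in each system, except for primary hippocampus with 6 of each. Arrays that share a mouse ID in the labels were taken to come from a single litter. There were 10 mouse IDs in all 4 systems, and none held both genotypes. Values are the authors' log2 signals after RMA normalization, so a difference of 1 is a 2-fold change. The arrays have no read counts, and the precision depends on their number and on the spread between them.

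Cholesterol is made in the brain itself, since the lipoproteins of the blood do not cross the blood-brain barrier. Acetyl groups are joined into mevalonate and then into farnesyl pyrophosphate, which squalene synthase and the later enzymes turn into sterols. When sterols in the endoplasmic reticulum run low, SCAP carries SREBP to the Golgi, where it is cut and released to the nucleus to switch on the synthesis genes. INSIG proteins hold SCAP back when sterols are plentiful. When oxidized sterols accumulate, LXR switches on export pumps such as ABCA1 and ABCG1, together with Srebf1. Neurons dispose of surplus cholesterol through CYP46A1, which makes 24S-hydroxycholesterol.

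The labels held up against the arrays. The Fmr1 signal was lower in KO than in WT arrays by 0.90 to 0.99 on the log2 scale in the 4 systems, and no KO array reached the lowest WT array. Mature neuron markers had mean levels of 9.83 (hippocampal) and 9.40 (cortical) in the cultures and of 7.11 and 7.24 in the tissues. Astrocyte markers were also higher in the cultures (9.56 and 9.34, against 8.22 and 7.29 in the tissues), while all 8 microglial markers were lower. A level of 5.16, set from receptors and keratin-associated genes that brain is not known to use, is taken as background, and 65.6% of all genes lay above it. Of the members, Nr1h3 alone stayed under it in every system, with means of 4.53 to 4.66. The signal gap between 3' and 5' probe sets of Actb, a sign of RNA quality, was 0.57 to 0.86 in the cultures and 0.44 to 0.63 in the tissues. Its part in the culture comparisons was not tested. The RNA is of mixed cells, in which fewer cells of a type and less RNA per cell cannot be told apart.

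Hippocampal cultures gave higher signals than primary hippocampus for nearly the whole pathway. Of the 28 members, 25 were higher in hippocampal culture than in primary hippocampus and 0 were lower at an adjusted p under 0.05, where 35.9% of all genes were called higher and 36.2% lower. At least 2-fold higher were 12 members, against 8.4% of all genes. The median difference of the members was 0.94 and that of all genes 0.02. The synthesis enzymes accounted for 17 of the 25, all except Ggps1, which makes geranylgeranyl pyrophosphate for the side branch of protein prenylation (difference 0.03 ± 0.09, SE). Higher in culture in each of the 10 litters present in both were 18 members, but the share of all genes that did so was not computed. In the same comparison all 9 mature neuron markers were higher and all 6 progenitor and dividing cell markers lower, and the part of these cells in the sterol gene differences was not tested.

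The 5 largest rises among the synthesis enzymes were those of Msmo1, Hsd17b7, Dhcr7, Sc5d and Ebp, which act after the first sterol has formed. Msmo1, the C4-methyl sterol oxidase, ranged from 9.64 to 10.35 with a median of 10.02 in primary hippocampus and from 11.42 to 12.01 with a median of 11.76 in hippocampal culture. No tissue array reached a culture array, and the difference was 1.75 ± 0.10 (SE, 3.37-fold, adjusted p = 2.76e-18). Hsd17b7, the sterol 3-ketoreductase that acts beside it, went from a median of 8.27 (7.86 to 8.47) to 10.06 (9.60 to 10.26), a difference of 1.74. Dhcr7, which reduces 7-dehydrocholesterol to cholesterol, went from 8.08 (7.83 to 8.26) to 9.71 (8.78 to 9.94), a difference of 1.56. These 3 enzymes did not overlap between culture and tissue on any array. Sc5d, the sterol C5-desaturase, rose from a median of 8.98 (8.73 to 9.20) to 10.30 (10.08 to 10.58). Ebp, the sterol isomerase, rose from 7.94 (7.72 to 8.11) to 9.31 (8.74 to 9.91). Their differences were 1.38 and 1.33, and again the arrays did not overlap. Sqle, squalene epoxidase, which acts before the first sterol, came next at 1.24, ahead of Tm7sf2 (1.18), Nsdhl (1.04) and Cyp51 (0.98). Mvd rose by 0.94, Hmgcs1, which makes HMG-CoA, by 0.78, Mvk by 0.75, Idi1 by 0.59, Fdft1 by 0.48, Pmvk by 0.45, Fdps by 0.44 and Lss by 0.38.

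Regulators and transporters rose with them. Scap rose by 0.88, Insig1 by 0.94, Srebf1 by 0.94 and Srebf2 by 0.31, all called, while Insig2 did not pass (-0.04 ± 0.08, SE). Of the transport genes, Stard4, a sterol carrier in the cytosol, was higher by 1.11, the export pump Abcg1 by 1.10 and Abca1 by 1.05. The largest difference of all members belonged to Cyp46a1. Its level ran from 6.06 to 6.70 with a median of 6.35 in primary hippocampus and from 9.04 to 10.14 with a median of 9.20 in hippocampal culture, a rise of 2.89 ± 0.10 (SE, 7.39-fold, adjusted p = 5.42e-25). The groups stood more than 2 log2 units apart at their closest arrays.

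The same comparison in the cortex split the pathway. In cortical culture 17 of the 28 members were higher than in primary cortex and 6 were lower, where 35.3% of all genes were called higher and 35.9% lower. At least 2-fold higher were 6 members (8.24% of all genes), and the median was 0.37, against 0.01 over all genes. Cyp46a1 rose most here too, from a median of 6.49 (6.38 to 6.92) to 9.51 (9.23 to 10.07), a difference of 3.04. Abca1 went from 9.67 (9.53 to 9.80) to 11.88 (11.15 to 12.47), a difference of 2.18 ± 0.14 (SE). Srebf1, the SREBP gene that is itself under LXR, went from 7.90 (7.72 to 8.14) to 9.87 (9.11 to 10.80), a difference of 2.00 ± 0.15 (SE). None of these 3 overlapped between culture and tissue. Dhcr7 rose by 1.17, from a median of 7.99 (7.60 to 8.31) to 9.19 (8.64 to 9.68), and Hsd17b7 by 1.06, from 7.79 to 8.35 in tissue to 8.79 to 10.07 in culture. Scap, the SREBP escort, rose by 1.04, from 9.11 (8.89 to 9.22) to 10.12 (9.86 to 10.48). All arrays of these 3 were also higher in culture than any in tissue.

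Among the synthesis enzymes, 11 of 18 rose in cortical culture, and 5 fell. The 5 that fell were Fdps, Fdft1, Lss, Ggps1 and Idi1. Fdps, which makes farnesyl pyrophosphate, went from a median of 10.30 (10.10 to 10.60) to 9.73 (9.18 to 10.04) and fell by 0.70. Fdft1, squalene synthase, went from 11.72 (11.48 to 11.85) to 11.19 (10.76 to 11.47) and fell by 0.53. In both, every culture array was below every tissue array. Lss, which closes the sterol rings, fell by 0.46, Ggps1 by 0.34 and Idi1, the isopentenyl pyrophosphate isomerase, by 0.28, each with some overlap of arrays. Sqle, which lies between Fdft1 and Lss in the pathway, rose by 0.71. Insig2 fell by 0.33. In the same comparison all 9 mature neuron and all 9 astrocyte markers were higher, 7 of 11 oligodendrocyte lineage markers were higher and 1 lower, and of 6 progenitor and dividing cell markers 5 were lower and 1 higher. The part of these cells was not tested. Not called were Mvd (-0.25), Nsdhl (0.18), Srebf2 (0.02), Stard4 (0.11) and Nr1h3 (0.07).

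**Figure D1:**
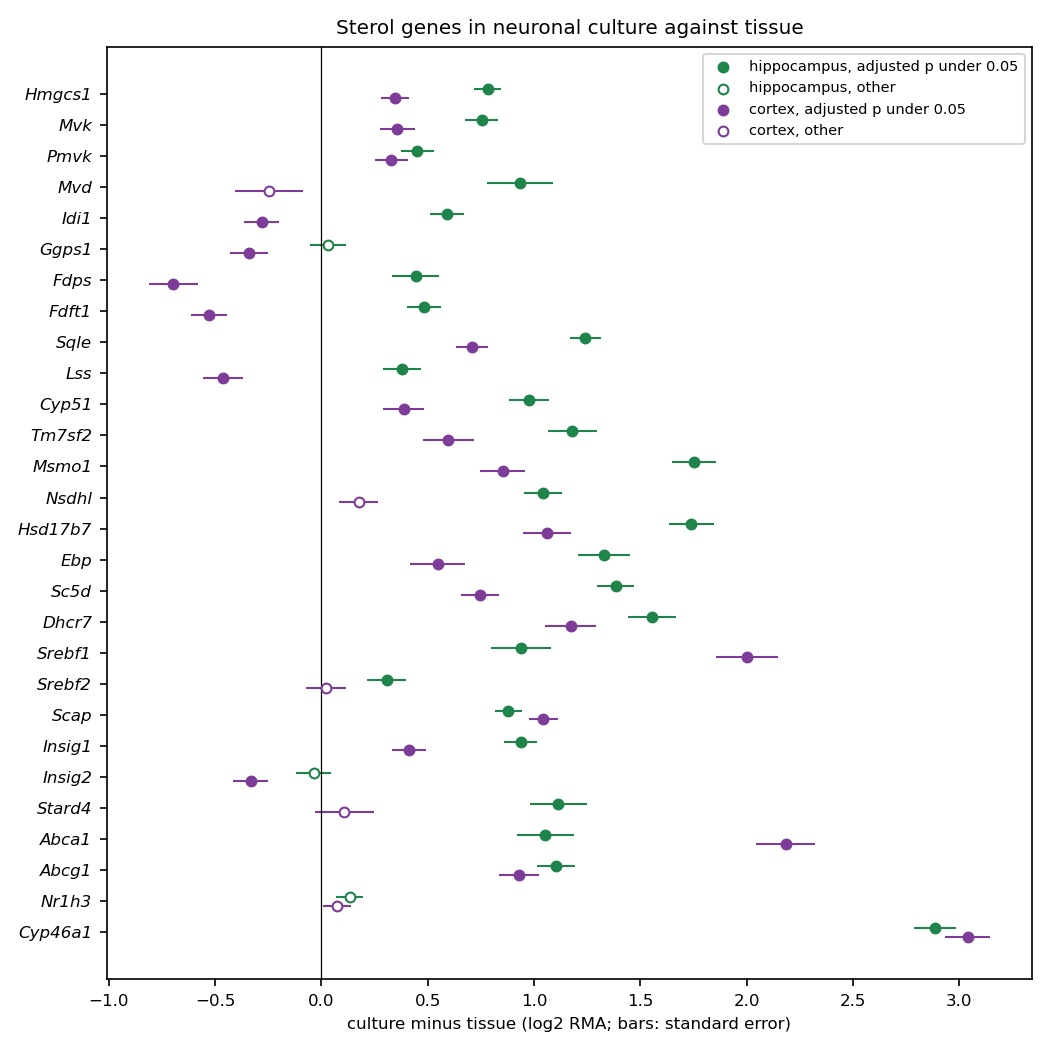
Culture minus tissue difference in log2 units for each of the 28 members (rows) in hippocampus (green) and cortex (purple), with the standard error as bars and open symbols where the adjusted p was 0.05 or more. Most green points lie to the right of the purple ones, Fdps, Fdft1, Lss, Idi1 and Ggps1 lie left of 0 in cortex, and Srebf1 and Abca1 lie farther right in cortex (2.00 and 2.18) than in hippocampus (0.94 and 1.05).

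The difference between the effects of culture in hippocampus and in cortex was tested as such. It was called for 20 of 28 members. The culture minus tissue difference was higher in hippocampus for 18 and in cortex for 2, where the shares over all genes were 14.9% and 17.1%. Of the 18 were 16 synthesis enzymes, with Mvd (1.18 ± 0.22, SE), Fdps (1.14 ± 0.16) and Fdft1 (1.01 ± 0.12) in front, together with Stard4 (1.01 ± 0.19) and Insig1 (0.53 ± 0.11). Ggps1 was among the 18 without a called rise in hippocampus. The 2 in the other direction were Abca1 (-1.13 ± 0.19) and Srebf1 (-1.06 ± 0.20). Levels in tissue enter this contrast, and Abca1 had means of 10.40 in primary hippocampus and 9.66 in primary cortex. Dhcr7 and Pmvk, 0.38 and 0.12, were the only synthesis enzymes below the threshold. For Cyp46a1 the rise was not called different between the regions (-0.15 ± 0.15, SE).

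Probe sets of 1 gene did not always move together in the cortex. For Cyp51, lanosterol demethylase, the representative probe set rose by 0.39, while 2 others above background fell by 0.81 and 0.36, so its direction in cortical culture is not settled. Another probe set of Sc5d stood at -0.10, not called, and another of Stard4 fell by 0.47. Of the 22 further probe sets above background for the members called in hippocampus, 21 had the sign of the representative, the exception again belonging to Cyp51 (-0.14, not called).

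**Figure D2:**
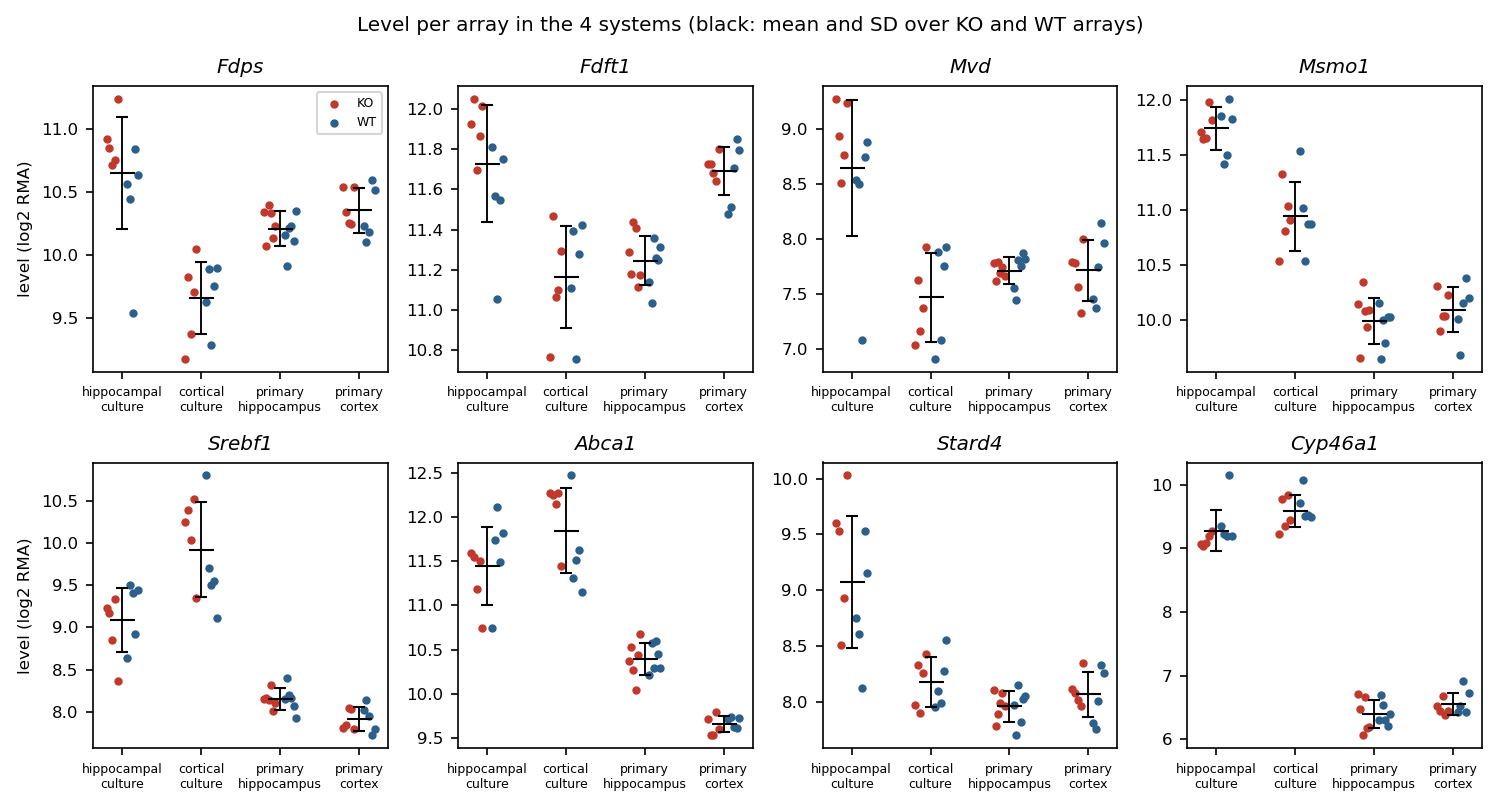
Level of 8 members (log2 RMA signal, y axis) on each array of the 4 systems, with KO in red, WT in blue and black lines for the mean and SD over both genotypes. Fdps and Fdft1 have their lowest medians in cortical culture (9.73 and 11.19), Srebf1 and Abca1 their highest (9.87 and 11.88), and Cyp46a1 lies between 9.04 and 10.14 in both cultures, where no tissue array is above 6.92.

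In the main fit, which does not pair arrays by litter, the tissues of the 2 regions differed in few members. Between primary hippocampus and primary cortex, 2 of 28 members were called higher and 3 lower, against 19.7% and 16.7% of all genes. Abca1 was higher in hippocampus by 0.73 ± 0.13 (SE), with 10.04 to 10.68 in hippocampus and 9.53 to 9.80 in cortex, and Ebp by 0.41 ± 0.12, with 7.72 to 8.11 against 7.34 to 7.68. Neither overlapped between the tissues. Fdft1 was lower by 0.45, with a median of 11.25 in hippocampus and 11.72 in cortex and no overlap, Lss was lower by 0.35 (8.17 to 8.45 against 8.37 to 8.92) and Ggps1 by 0.25 (7.91 to 8.32 against 8.16 to 8.67), both with overlap. Tm7sf2, a sterol reductase, was higher by 0.28 without a call, with 7.35 to 7.70 against 6.93 to 7.49. With the litter as a fixed block, which uses the 10 shared litters, 10 members were called in this comparison, 7 higher and 3 lower. The share of all genes called with that block was not computed, so this count has no background beside it. In the main fit the other 23 members were not called, with differences from -0.16 to 0.28.

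In culture the regions parted. Hippocampal culture was higher than cortical culture in 20 of 28 members and lower in 3, where 14.7% of all genes were higher and 13.5% lower. These contrasts use the culture arrays of the comparisons above and are no separate evidence. Of the 18 synthesis enzymes 16 were higher in hippocampal culture, with a median difference of 0.60. Ebp was higher by 1.19 ± 0.13 (SE), with 8.74 to 9.91 (median 9.31) in hippocampal culture and 7.39 to 8.65 (median 8.29) in cortical culture. Mvd, which makes isopentenyl pyrophosphate, was higher by 1.18 ± 0.16, with 7.08 to 9.27 (median 8.76) against 6.91 to 7.93 (median 7.50). Idi1 was higher by 0.94 ± 0.08, with 10.13 to 10.94 (median 10.55) against 9.47 to 9.98 (median 9.56). Ebp and Idi1 did not overlap between the cultures, while a single low hippocampal array made Mvd overlap. Fdps was higher by 0.99, with 9.54 to 11.24 (median 10.73) against 9.18 to 10.04 (median 9.73). Stard4 was higher by 0.90, with 8.12 to 10.03 (median 9.04) against 7.90 to 8.55 (median 8.18), and Tm7sf2 by 0.86, with 7.82 to 8.96 (median 8.81) against 7.18 to 8.56 (median 7.79). The cortical range was reached by 1 hippocampal array for Fdps (WT 2644) and by 2 each for Stard4 and Tm7sf2, WT 2644 among them. Lower in hippocampal culture were Srebf1 (-0.83 ± 0.15), Abca1 (-0.40 ± 0.14) and Cyp46a1 (-0.31 ± 0.11). The calls of Abca1 and Cyp46a1 were lost with the litter as a fixed block and in a fit of the compared arrays alone, which left Srebf1 as the lower member.

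Cell type markers differed between the cultures as well. In hippocampal culture 8 of 11 oligodendrocyte lineage markers were lower and 0 higher, with a mean level of 5.49 to 5.74 over its arrays against 6.22 to 6.90 in cortical culture. Pdgfra, the marker of oligodendrocyte precursors, was at 5.52 and 8.91, and Olig2 at 4.87 and 8.65. Olig1 of the same list was far above background in both cultures, at 10.95 and 11.87. The myelin genes Mag, Mog, Mobp and Cldn11 were at background in all 4 systems, while Mbp and Cnp of the same list were above it in all 4. Of 9 mature neuron markers, 5 were higher in hippocampal culture and 0 lower, and of 9 astrocyte markers 2 were higher and 1 lower, where 14.7% of all genes were higher and 13.5% lower. Of 6 progenitor and dividing cell markers 4 were lower, with mean levels of 6.62 and 7.26, and of 4 choroid plexus markers 2 were higher. The part of these cells in the sterol gene differences was not tested.

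The question of the study was what the loss of Fmr1 changes in each system. In hippocampal culture, 9 of 28 members were called higher in KO and 1 lower at an unadjusted p under 0.05, where 6.87% of all genes were called higher and 2.67% lower. Synthesis enzymes made up 8 of the 9 higher members, and Stard4 was the other. The lower member was Scap. At an adjusted p under 0.05 no member was called, the smallest limma adjusted p being 0.352. The median over the 18 synthesis enzymes was 0.25, against 0.01 over all genes. Of the 18, 16 had a positive difference, where 54.7% of all genes did. The study itself listed terpenoid backbone biosynthesis among the pathways enriched in KO hippocampal culture, from these same arrays. Since the members were chosen with earlier results known, these counts are no separate evidence.

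Hmgcs1, at the entry of the mevalonate pathway, had levels of 13.12, 13.16, 13.23, 13.23 and 13.27 in KO and 12.82, 12.95, 13.0016, 13.11 and 13.14 in WT. A single WT array reached the lowest KO array, and the difference was 0.20 ± 0.09 (SE, limma p = 0.0387, exact permutation p = 0.0159). Mvk, mevalonate kinase, had 8.16, 8.16, 8.22, 8.33 and 8.44 in KO and 7.48, 7.94, 7.97, 8.17 and 8.27 in WT. Of the WT arrays 2 lay inside the KO range and 1 far below, with a difference of 0.29 ± 0.12 (limma p = 0.0159, exact permutation p = 0.0714). Mvd, the mevalonate pyrophosphate decarboxylase, had 8.51, 8.76, 8.94, 9.24 and 9.27 in KO and 7.08, 8.50, 8.54, 8.75 and 8.88 in WT. The groups overlapped and 1 WT array stood far below the other 4, and the difference of 0.60 ± 0.23 was the largest of the members (limma p = 0.0131, exact permutation p = 0.0794). Idi1 had 10.47, 10.55, 10.68, 10.89 and 10.94 in KO and 10.13, 10.24, 10.40, 10.54 and 10.59 in WT. Here 3 WT arrays lay below every KO array, with a difference of 0.33 ± 0.12 (limma p = 0.00782, exact permutation p = 0.0397).

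Fdps had levels of 10.72, 10.75, 10.85, 10.92 and 11.24 in KO and 9.54, 10.45, 10.56, 10.63 and 10.84 in WT. Only the highest WT array was inside the KO range, and the difference was 0.49 ± 0.16 (1.41-fold, limma p = 0.0044, exact permutation p = 0.0317). Fdft1, which commits farnesyl pyrophosphate to sterols, had 11.70, 11.86, 11.93, 12.02 and 12.05 in KO and 11.06, 11.55, 11.57, 11.75 and 11.81 in WT. The 2 highest WT arrays overlapped the lowest KO array, and the difference was 0.36 ± 0.12 (limma p = 0.00461, exact permutation p = 0.0317). Lss had 8.54, 8.57, 8.76, 9.18 and 9.21 in KO and 8.00, 8.32, 8.59, 8.80 and 8.96 in WT. These arrays were interleaved, with a difference of 0.32 ± 0.13 (limma p = 0.0223, exact permutation p = 0.222). Nsdhl, a sterol dehydrogenase encoded on the X chromosome, had 10.21, 10.22, 10.36, 10.42 and 10.57 in KO and 9.41, 9.96, 10.06, 10.12 and 10.39 in WT. All but the highest WT array lay below the KO arrays, with a difference of 0.37 ± 0.13 (limma p = 0.00689, exact permutation p = 0.0476).

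Outside the enzymes, Stard4 had levels of 8.51, 8.93, 9.53, 9.60 and 10.03 in KO and 8.12, 8.61, 8.75, 9.15 and 9.53 in WT. The ranges overlapped over most of their length, and the difference was 0.48 ± 0.20 (SE, limma p = 0.019, exact permutation p = 0.214). Scap, which SREBP needs to leave the endoplasmic reticulum, had 9.74, 9.92, 9.94, 9.94 and 10.26 in KO and 10.07, 10.18, 10.21, 10.22 and 10.24 in WT. Here 4 KO arrays lay below all WT arrays and the fifth above them, and the difference was -0.23 ± 0.09 (limma p = 0.0226, exact permutation p = 0.0476). The permutation tests were two-sided and cannot go below 0.00794 with 5 arrays against 5.

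**Figure D3:**
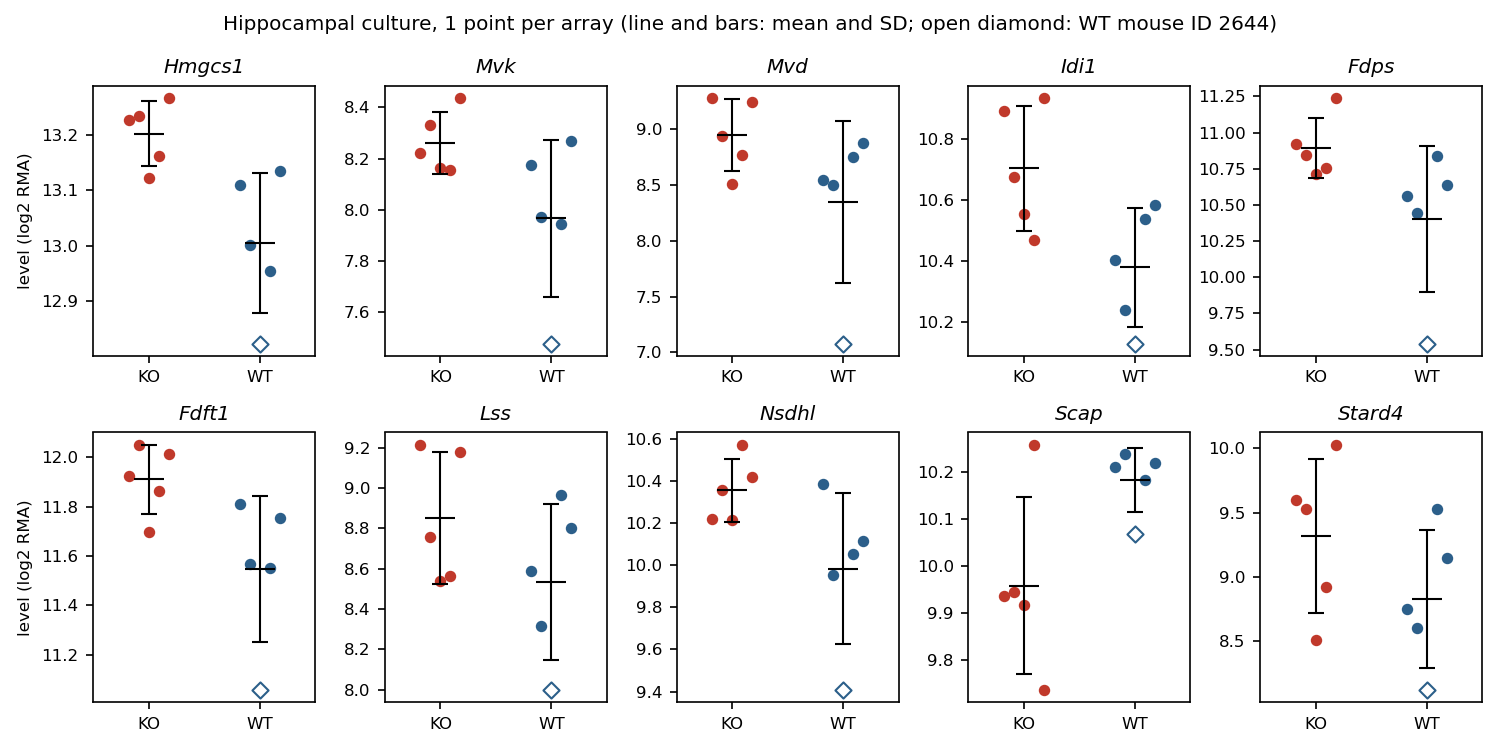
Level (log2 RMA signal) of the 10 members called in hippocampal culture, with 1 point per array, KO in red and WT in blue, and lines for the mean and SD; each y axis has its own range. The WT array of mouse ID 2644 (open diamond) is the lowest WT array in all 10 panels, at 7.08 for Mvd and 9.54 for Fdps.

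The promoters of 25 members were found in the RefSeq table of GRCm38.p6, as windows of 250 bases before and 50 after a start of transcription. They were searched on both strands for TCACNCCAC, a form of the sterol regulatory element, and for CCAAT, the site of NF-Y, a partner of SREBP at many sterol genes. The first was found in 1 of 34 member promoters, that of Hmgcs1 at -137 from the start, and in 1.24% of all promoters. The second was found at 15 of 16 synthesis enzyme genes in at least 1 window, 93.8%, where 41.1% of all genes had it. A match is a description of the letters, and other forms of either site were not searched. No match of one motif overlapped the other. The 250 bases before the start are given here for the synthesis enzymes called higher in KO hippocampal culture that the table holds, and for Abca1, the member whose culture effect differed most in the opposite direction, which has neither motif. Each is written 5′ to 3′ on the strand of the gene, with matches to either motif, on either strand, in capitals.
Hmgcs1, chr13:119690101-119690350, plus strand: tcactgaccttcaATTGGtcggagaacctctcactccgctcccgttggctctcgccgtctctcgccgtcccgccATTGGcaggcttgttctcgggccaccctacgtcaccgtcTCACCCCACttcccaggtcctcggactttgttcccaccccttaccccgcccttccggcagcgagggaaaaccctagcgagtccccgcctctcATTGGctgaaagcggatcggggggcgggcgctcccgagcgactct
Mvk, chr5:114444019-114444268, plus strand: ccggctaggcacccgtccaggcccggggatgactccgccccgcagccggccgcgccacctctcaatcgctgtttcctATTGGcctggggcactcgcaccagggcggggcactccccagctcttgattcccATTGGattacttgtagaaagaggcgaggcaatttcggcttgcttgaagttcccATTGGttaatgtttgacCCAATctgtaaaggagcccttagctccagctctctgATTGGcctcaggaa
Mvd, chr8:122443423-122443672, minus strand: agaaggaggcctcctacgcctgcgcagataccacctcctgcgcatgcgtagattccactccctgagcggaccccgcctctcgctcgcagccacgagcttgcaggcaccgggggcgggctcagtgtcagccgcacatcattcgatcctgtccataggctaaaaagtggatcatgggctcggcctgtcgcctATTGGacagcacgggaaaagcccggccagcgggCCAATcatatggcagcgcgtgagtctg
Idi1, chr13:8885356-8885605, plus strand: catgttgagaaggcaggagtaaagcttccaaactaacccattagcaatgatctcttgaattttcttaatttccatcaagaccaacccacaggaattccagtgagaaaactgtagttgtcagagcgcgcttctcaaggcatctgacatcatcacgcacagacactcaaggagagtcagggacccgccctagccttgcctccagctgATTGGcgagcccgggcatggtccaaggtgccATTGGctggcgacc
Lss, chr10:76531355-76531604, plus strand: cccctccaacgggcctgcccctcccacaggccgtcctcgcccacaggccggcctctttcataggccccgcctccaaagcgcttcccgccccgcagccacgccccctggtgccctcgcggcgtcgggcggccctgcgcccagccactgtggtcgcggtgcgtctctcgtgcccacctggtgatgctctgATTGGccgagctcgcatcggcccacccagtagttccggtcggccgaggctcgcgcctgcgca
Nsdhl, chrX:72918271-72918520, plus strand: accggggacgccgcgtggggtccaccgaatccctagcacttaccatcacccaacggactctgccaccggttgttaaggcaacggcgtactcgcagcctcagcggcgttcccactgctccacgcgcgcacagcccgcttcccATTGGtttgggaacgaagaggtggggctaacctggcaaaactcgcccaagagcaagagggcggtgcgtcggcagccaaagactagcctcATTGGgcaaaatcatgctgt
Abca1, chr4:53159896-53160145, minus strand: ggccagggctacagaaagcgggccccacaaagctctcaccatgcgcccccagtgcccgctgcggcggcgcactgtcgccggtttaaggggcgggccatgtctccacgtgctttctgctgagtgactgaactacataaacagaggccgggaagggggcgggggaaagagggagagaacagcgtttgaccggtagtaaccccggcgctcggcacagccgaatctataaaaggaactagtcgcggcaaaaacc

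ATTGG is CCAAT read on the other strand. Positions count back from the start of transcription to the first base of a match. Hmgcs1 shows the sterol element as TCACCCCAC between CCAAT matches at -176 and -45. It has 4 CCAAT matches in its whole window, the others at -237 and, after the start, at 11. Mvk, with 5, has matches at -173, -120, -67, -50 and -14. Mvd has them at -60 and -27, Idi1 at -45 and -14, and Lss at -62. Nsdhl has 4 in its whole window, of which those at -109 and -20 are in the bases shown.

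A single WT array weighed on these calls. The hippocampal culture of WT mouse ID 2644 had a mean level of 9.47 over the 18 synthesis enzymes, where the other 4 WT arrays had 9.83 to 10.10 and the KO arrays 9.94 to 10.25. It also had the lowest mean of the mature neuron markers, 9.33 against 9.69 to 10.21 on the other 9 arrays, and the highest of the progenitor and dividing cell markers, 7.27 against 6.19 to 6.78. Its gaps between 3' and 5' probe sets were the widest of the 10 hippocampal cultures, 0.27 for Gapdh against -0.07 to 0.11 and 0.82 for Actb against 0.57 to 0.76. Their part in the level of this array was not tested. Without it, 4 members were called, 2 higher (Idi1, 0.26, and Fdft1, 0.24) and 2 lower (Scap, -0.25, and Cyp46a1, -0.35). The share of all genes called without this array was not computed, so these 4 are not shown to exceed genes in general. Fdps stood at 0.28, Mvd at 0.28 and Nsdhl at 0.23, none of them called, and the median of the synthesis enzymes was 0.14, with 14 of 18 positive. Mean levels of mature neuron markers were 9.83 ± 0.10 in KO and 9.83 ± 0.33 in WT (SD, n = 5 each), and 0 of 9 were called. Of 6 immature neuron markers 4 were called higher in KO, against 6.87% of all genes. The part of cell composition in the difference was not tested. Leaving out 1 of the other 9 arrays also ended single calls: that of Hmgcs1 without any of KO 2037, 2038 and 4236 or WT 2643 and 3569, that of Lss without KO 2037 or 4236 or WT 2643, that of Stard4 without KO 2037 or 4236, and that of Scap without KO 4236. The calls of Idi1 and Fdft1 held in all 10 such fits. In a fit of the compared arrays alone Mvd, Lss and Stard4 were no longer called. With array weights Hmgcs1, Mvk, Mvd and Stard4 lost their calls.

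Other probe sets of the same genes gave the same direction. Of 12 further probe sets above background for the 10 called members, all 12 had the sign of the representative and 7 were called themselves, among them Hmgcs1 (0.39), Stard4 (0.58 and 0.47) and Mvd (0.59). Among the members not called, 2 further probe sets of Ggps1 were higher (0.29 and 0.24) and 1 of Msmo1 was lower (-0.34). They measure the same RNA samples and do not add replicates. The enzymes that were not called ranged from -0.05 for Ebp to 0.27 for Dhcr7 and Tm7sf2. Among the regulators Srebf1 (-0.19), Srebf2 (-0.12), Insig1 (0.08) and Insig2 (0.03) were not called, nor were Abca1 (-0.27), Abcg1 (-0.02), Nr1h3 (0.02) and Cyp46a1 (-0.29, limma p = 0.0565, exact permutation p = 0.0556).

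In cortical culture 1 member was called higher in KO and 1 lower, where 6.17% of all genes were higher and 4.05% lower. The higher one was Abca1, with 11.44, 12.14, 12.25, 12.27 and 12.28 in KO and 11.15, 11.32, 11.52, 11.62 and 12.47 in WT. One KO array lay among the WT arrays and 1 WT array above all KO arrays, and the difference was 0.46 ± 0.20 (SE, limma p = 0.025, exact permutation p = 0.167). The lower one, Nr1h3, the gene of LXR alpha, had 4.32, 4.49, 4.56, 4.58 and 4.58 in KO and 4.37, 4.54, 4.84, 4.88 and 5.0003 in WT, all at background, with a difference of -0.22 (limma p = 0.0253, exact permutation p = 0.111). No synthesis enzyme was called by its representative probe set. Their median was -0.06, with 4 of 18 positive, where 52.9% of all genes were. They ran from -0.34 for Ebp to 0.15 for Lss. In a fit of the compared arrays alone neither Abca1 nor Nr1h3 was called, and each lost its call in fits without 1 array (Abca1 without KO 2037, 2038 or 2620 or WT 2643 or NT, Nr1h3 without KO 2620 or WT 2643, 3569 or NT). The other Abca1 probe set above background stood at -0.27, not called, against the direction of the representative. Over all members, 14 of 27 further probe sets above background had the sign of the representative in cortical culture, against 22 of 27 in hippocampal culture. Among them 1 of Idi1 (0.42), 1 of Ggps1 (0.17) and 1 of Insig2 (0.24) were called higher.

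The tissues showed 0 of 28 members called in KO against WT, in primary hippocampus and in primary cortex alike, by limma at an unadjusted p under 0.05. The shares over all genes were also low there, 0.594% higher and 0.945% lower in hippocampus and 1.23% and 0.434% in cortex. The differences of the members ran from -0.13 to 0.14 in primary hippocampus and from -0.11 to 0.12 in primary cortex, and their smallest p-values were 0.282 and 0.453. The 95% intervals of Fdps reached up to 0.39 in both tissues. Those of Stard4 reached up to 0.38 in hippocampus and 0.47 in cortex. These limits lie below the differences of both genes in hippocampal culture. The intervals in that culture, 0.16 to 0.82 for Fdps and 0.08 to 0.89 for Stard4, still overlap those of the tissues. Other called members differed in this. The interval of Hmgcs1 in primary hippocampus, up to 0.22, included its difference in hippocampal culture of 0.20. That of Mvk in primary cortex, up to 0.32, included its difference of 0.29.

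**Figure D4:**
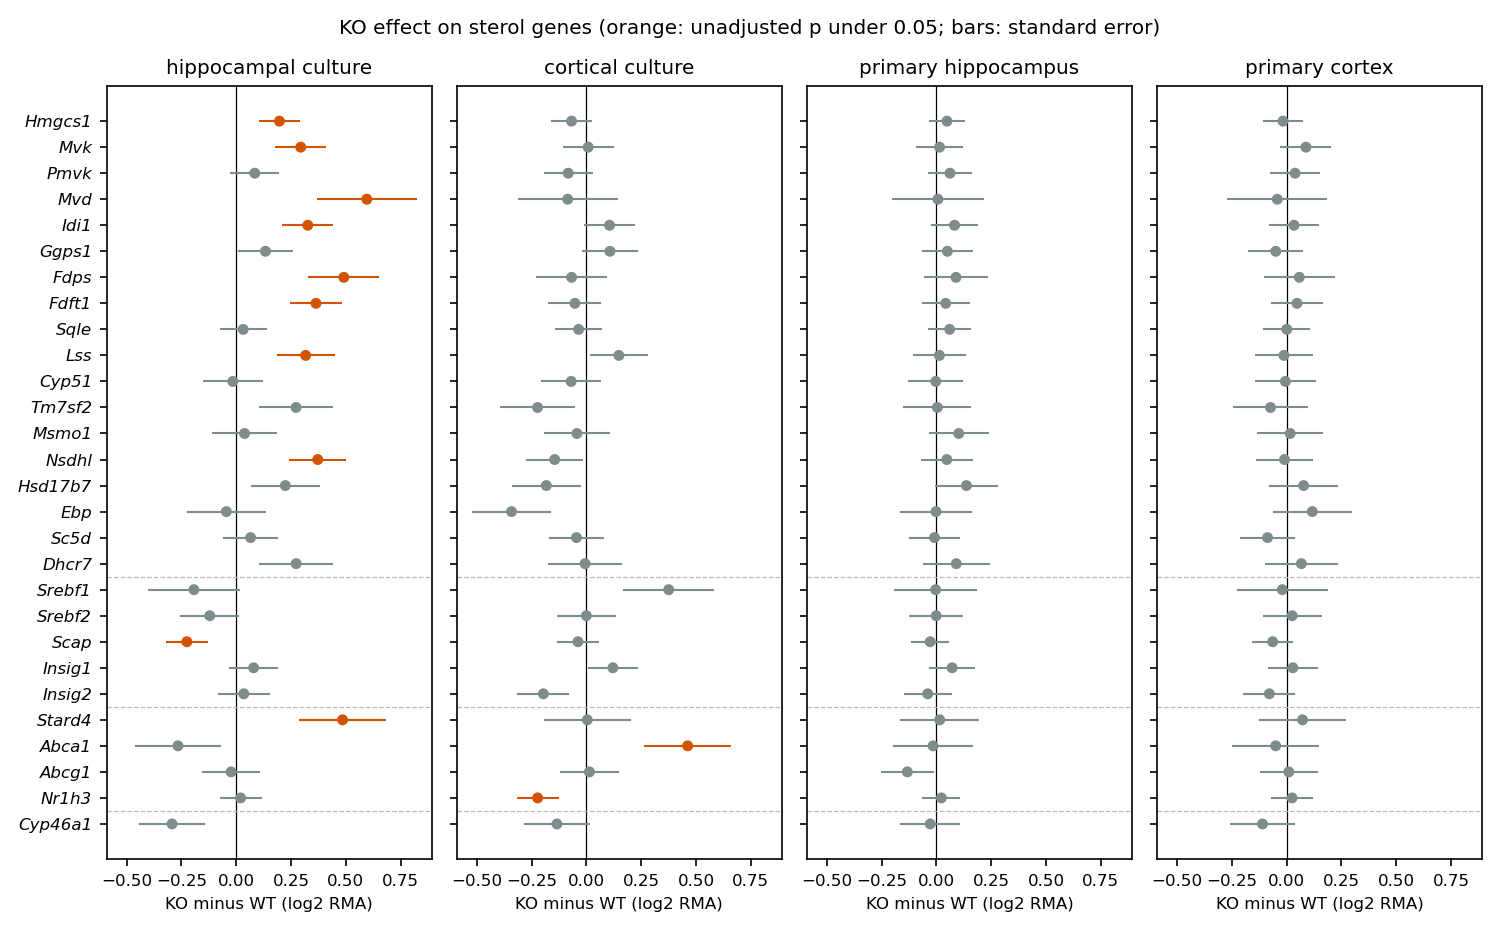
KO minus WT difference (log2 RMA units, x axis) of the 28 members in the 4 systems, with the standard error as bars and orange where the unadjusted p was under 0.05; dashed lines part synthesis enzymes, SREBP regulation, transport and LXR, and turnover. The orange points are 10 in hippocampal culture, 2 in cortical culture and 0 in the tissues.

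Whether the KO effect differed between systems was tested directly. Between culture and tissue, 0 of 28 members passed an unadjusted p under 0.05 in hippocampus, where 4.58% of all genes did, and 0 in cortex, where 4.64% did. The nearest in hippocampus were Fdft1 (0.32 ± 0.16, SE) and Mvd (0.59 ± 0.31). The rise of the synthesis enzymes in hippocampal culture was thus not shown to differ from their change in the tissue. Between hippocampal and cortical culture, a comparison added after the data were seen, the KO effect was higher in hippocampal culture for 6 members and lower for 1, where 2.01% of all genes were higher and 2.54% lower. The 6 were Mvd (0.68), Fdps (0.56), Nsdhl (0.52), Tm7sf2 (0.50), Fdft1 (0.42) and Hmgcs1 (0.26), all synthesis enzymes, and the other was Abca1 (-0.73). Every adjusted p for these was 0.984. Without 1 array the number called ran from 2 (without WT 2644 in hippocampal culture or KO 2037 in cortical culture) to 11 (without WT 2644 in cortical culture).

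The synthesis enzymes moved together from array to array within a group. After each group's mean was removed, the mean correlation over the 153 pairs of enzymes was 0.44 across the 42 arrays, where the mean over all pairs of the 11937 genes above background was 0.02. It was 0.43 over the 20 cultures and 0.49 over the 22 tissues. Points share the normalization and the litters, and genes are not independent of each other. Nsdhl, Dhcr7, Fdft1 and Fdps followed the mean of the other enzymes most closely, with r of 0.88, 0.87, 0.85 and 0.85, and Ggps1 least (0.23). Stard4 followed it at 0.67 and Srebf2, the SREBP that mainly drives sterol synthesis, at 0.60, with 0.80 in cultures and -0.16 in tissues. Abca1 (-0.27) and Srebf1 (-0.12) did not rise with it. In hippocampal culture the enzyme mean followed the mature neuron markers, with r = 0.96 over 10 arrays and 0.90 without the WT array of mouse ID 2644, while over the 10 cortical cultures r was 0.24. Of the other marker lists, that of progenitors and dividing cells ran against the enzyme mean in hippocampal culture (-0.73, -0.45 without that array). So did that of endothelium and pericytes (-0.68, -0.61 without it), of which only 2 of 6 markers were above background there. Meningeal markers ran with the enzyme mean in cortical culture (0.79), where only 1 of the 4 was above background.

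**Figure D5:**
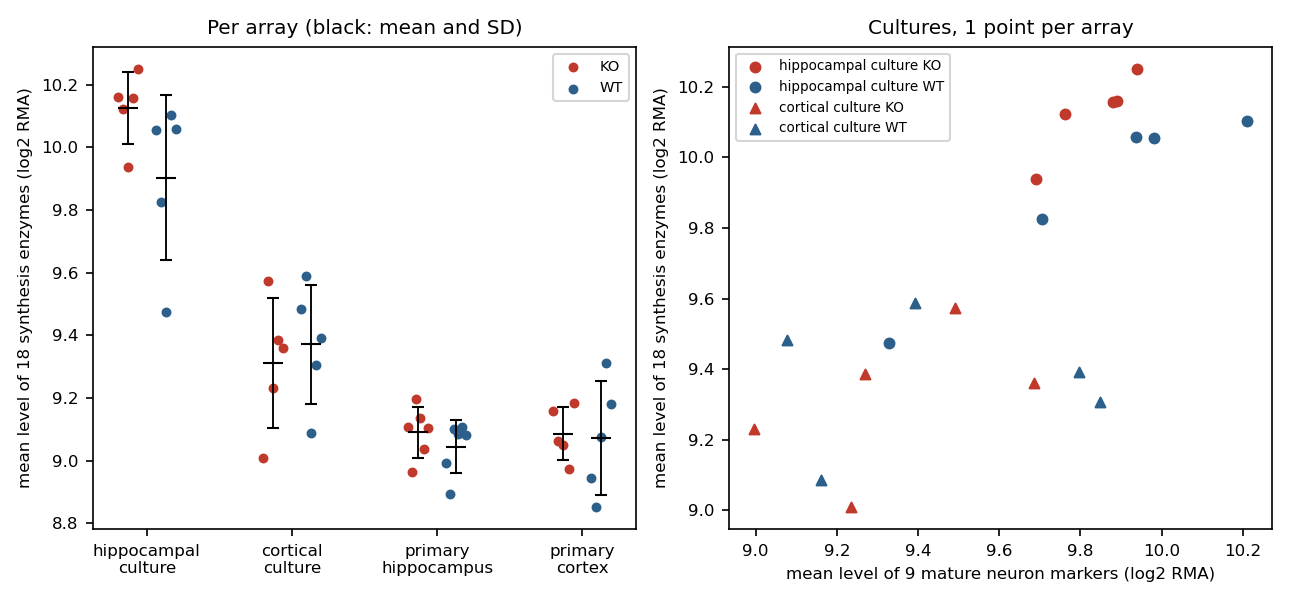
Left, mean level of the 18 synthesis enzymes (log2 RMA signal) on each array in the 4 systems, KO in red and WT in blue, with black lines for the mean and SD of each group; hippocampal cultures lie between 9.47 and 10.25, cortical cultures between 9.01 and 9.59 and the tissues between 8.85 and 9.31. Right, the same mean for the 20 cultures (y axis) against the mean level of 9 mature neuron markers (x axis), with circles for hippocampal and triangles for cortical culture.

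Neighbouring genes of lipid metabolism, listed by function, moved less evenly. In KO against WT in hippocampal culture, 2 of 5 other cholesterol genes were called higher, Aacs (0.30), which feeds ketone bodies into sterol synthesis, and Acly (0.28), which makes acetyl-CoA in the cytosol. The isoprenoid branch had 1 of 12 higher (Nus1, 0.20), the fatty acid targets of SREBP1 1 of 13 higher (Me1, 0.28), and SREBP processing 0 of 8, where 6.87% of all genes were higher. Of 13 genes of sterol uptake, transport and esterification 2 were lower, the lipoprotein receptors Lrp8 (-0.27) and Lrp1 (-0.26), where 2.67% of all genes were lower. In cortical culture Lrp8 was also called lower in KO (-0.22), where 4.05% of all genes were lower. Coq2 of the isoprenoid branch was called higher there (0.14), where 6.17% of all genes were higher, and no other gene of these lists was called. In culture against tissue, the fatty acid targets had 9 of 13 higher and 2 lower in hippocampus and 9 higher and 1 lower in cortex, led by Scd1, the stearoyl-CoA desaturase (3.30 and 3.87). The isoprenoid branch had 5 of 12 higher and 4 lower in hippocampus and 4 and 4 in cortex, where 35.9% of all genes were higher and 36.2% lower in hippocampus and 35.3% and 35.9% in cortex, shares near those of this list. Scarb1, a receptor of high density lipoprotein, was lower in hippocampal than in cortical culture (-1.13).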

How the data were processed

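Total RNA (100 ng) of 42 samples was hybridized to Affymetrix whole-genome mouse arrays. The authors deposited log2 values after robust multi-array average (RMA) normalization, which corrects background, equalizes the arrays and sums up the probes of each probe set, and these were used unchanged. Quantile scaling of this kind hides a shift shared by most genes. Of 45101 probe sets, 64 controls were left out and 45037 tested, and genes were named through the platform annotation. The members and lists were chosen with earlier results of these data known.

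Group means of the 8 groups were fitted over 42 arrays with limma 3.58.1 (lmFit, eBayes) in R 4.3.3. KO against WT, and the KO effect between systems, was called at an unadjusted p under 0.05, the rule of the study's methods, and other contrasts at a Benjamini-Hochberg adjusted p under 0.05 over all probe sets. Single genes were also tested by exact permutation in SciPy 1.17.1. Full values are given for members called in a KO comparison or among the 6 largest differences of another contrast. The contrast of KO effects between both cultures was added after the data were seen. Alternatives covered the call rule, probe set, scaling, weights, variance trend, background filter, arrays fitted, litter block and each array left out. Pairing by mouse ID comes from the labels: of 60 pairs of arrays of a mouse ID, 30 deviated together at r above 0.1 (median 0.10, from -0.15 to 0.58), against a median of -0.03 between mouse IDs. Between the tissues of a mouse ID r ran from 0.25 to 0.52, and between its cultures from -0.12 to 0.58. Between culture and tissue of the same region it ran from -0.11 to 0.24. A mouse ID was read as a litter, and KO and WT share none. The code was tested on simulated data. Arrays hold no read depth, and p-values measure the spread between pooled samples.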

Additional observations from a re-analysis of the deposited data

Results flagged for a closer look

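In 8 of 224 groups of arrays (3.57%, where chance gives about 5%), 1 array lay apart from the others by Dixon's test. For Mvd in hippocampal culture this was WT 2644 at 7.08, and for Ebp in cortical culture the same mouse ID at 7.48. Sc5d stood high in cortical culture WT 2236 at 10.37, and Cyp46a1 in hippocampal culture WT 3569 at 10.145. Abca1 was low in cortical culture KO 4236 at 11.44, Srebf2 in primary hippocampus KO 4236 at 7.43 and Insig1 in hippocampal culture KO 2221 at 9.57, while Insig2 was high in primary cortex KO 4236 at 8.71. Mouse ID 4236 accounts for 3 of the 8 and 2644 for 2.

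The effect of culture differed between hippocampus and cortex, by a test of that difference, for 20 members. It was higher in hippocampus for Mvd (1.18), Fdps (1.14), Fdft1 (1.01), Stard4 (1.01), Msmo1 (0.90), Idi1 (0.87), Nsdhl (0.86), Lss (0.84), Ebp (0.78), Hsd17b7 (0.68), Sc5d (0.64), Cyp51 (0.59), Tm7sf2 (0.58), Sqle (0.53), Insig1 (0.53), Hmgcs1 (0.43), Mvk (0.40) and Ggps1 (0.37). It was higher in cortex for Abca1 (-1.13) and Srebf1 (-1.06). The KO effect differed between the cultures, at an unadjusted p only, for Mvd (0.68), Fdps (0.56), Nsdhl (0.52), Tm7sf2 (0.50), Fdft1 (0.42), Hmgcs1 (0.26) and Abca1 (-0.73).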

How the results depend on the processing

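Counts are members called of 28, and the shares over all genes were not computed for the alternative fits. With adjusted p-values 0 were called in KO against WT in hippocampal culture (10 by the unadjusted rule), in cortical culture (2) and for the KO effect between the cultures (7). Array weights gave 6 in hippocampal and 4 in cortical culture, 2 for the KO effect in culture against tissue of cortex (0 otherwise) and 8 between the tissues (5 otherwise). Fits of the compared arrays alone gave 0 in cortical culture, 8 between the tissues, 1 for the KO effect in culture against tissue of hippocampus and 2 for that between the cultures. With the probe set of smallest p per gene, 6 were called in cortical culture, 1 in primary cortex, 3 and 2 for the KO effect in culture against tissue of hippocampus and cortex, and 11 between the cultures. Leaving out probe sets at background left 1 in cortical culture, and centring arrays on their median gave 1 for the KO effect in culture against tissue of hippocampus. A 2-fold threshold left 12 of 25 members in culture against tissue of hippocampus, 6 of 23 in cortex, 0 between the tissues, 2 of 23 between the cultures and 6 of 20 for the culture effect between regions. For Cyp51 in cortex the smallest-p probe set reversed the sign (-0.81 in place of 0.39). With the litter as a fixed block, 10 were called between the tissues, 21 between the cultures and 25 and 23 in culture against tissue. As a random block (correlation 0.0681) it gave 6 between the tissues and 21 for the culture effect between regions, and the counts of the other comparisons were equal. Leaving out each array gave 4 to 12 in hippocampal culture, 0 to 4 in cortical culture, 0 to 0 in both tissues, 25 to 26 and 23 to 24 in culture against tissue, 4 to 5 between tissues, 21 to 23 between cultures, 20 to 23 for the culture effect, 0 to 4 and 0 to 3 for the KO effect in culture against tissue and 2 to 11 between the cultures. The cause of these changes was not tested.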
